A study of Arabidopsis thaliana with 12 samples.

Results

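CLPS1 (AT1G68660) encodes an adaptor of the Clp protease of Arabidopsis chloroplasts, and 1 feature of the array, number 4397, was assigned by the platform annotation to this gene alone. That feature was taken from 3439 in the deposited table. The array compared pete1 pete2 double mutant plants with wild-type (WT) plants, both of ecotype Columbia 0 and both grown on MS medium, a mineral medium for plant culture. Total RNA was measured, with 6 columns of intensities for the mutant and 6 for WT. Per the labels, the mutant has neither isoform of plastocyanin, the small copper protein that carries electrons through the thylakoid lumen to photosystem I. The alleles, age and tissue of the plants, and whether plants were pooled, are not stated in the labels. CLPS1 was selected on its difference and spread between the genotypes in these same data, so every value of that difference is a description and no test of it is given.

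The Clp protease degrades soluble proteins of the plastid stroma. Its barrel-shaped core is made of CLPP and CLPR subunits with the accessory proteins CLPT1 and CLPT2, and ring-shaped chaperones of the CLPC and CLPD kind unfold substrates and thread them into it. CLPS1 is related to bacterial ClpS, which in Escherichia coli recognises proteins by their first amino acid and delivers them to the chaperone. In Arabidopsis CLPS1 binds the CLPC chaperones, acts together with a second adaptor, CLPF, and contributes to the turnover of glutamyl-tRNA reductase, the first committed enzyme of chlorophyll and heme synthesis. RefSeq lists 2 transcripts and 2 proteins for the gene, which a single feature cannot tell apart.

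Facts of the whole table bear on how CLPS1 was read. The columns summed to between 3493 and 3778 relative units in the mutant and between 3611 and 3690 in WT. Between 171 and 264 features of a mutant column were listed at 0, and between 170 and 206 of a WT column. CLPS1 was above 0 in all 12 columns. Columns 1 and 2, 3 and 4, and 5 and 6 of a genotype agreed closely. Over all features their median absolute log2 difference was between 0.0957 and 0.134, against 0.300 to 0.540 for other columns of a genotype. Columns of different genotypes differed by 0.308 to 0.507 on this measure, a range within that of other columns of a genotype. Each pair of closely agreeing columns was therefore averaged on the log2 scale and counted as 1 replicate, which left n = 3 per genotype. No feature was assigned to either plastocyanin gene, PETE1 or PETE2, so the genotype labels could not be checked on the genes that were disrupted. Of 14 markers of green tissue, 5 had a feature of their own (LHCB1.5, PSAN, PSBW, PRK and SBPASE), each above 0 in all columns, and the 8 root markers had none. The normalised intensities of these 5 features summed to between 41.5 and 68.7 in mutant columns and between 35.1 and 65.4 in WT columns, ranges that overlap, with PSBW by far the brightest. The markers did not differ alike. SBPASE, a Calvin cycle enzyme, had 0.686, 0.639 and 0.623 in mutant pairs 1-2, 3-4 and 5-6, against 1.06, 0.972 and 0.695 in WT. Its pair values were lower without overlap, as were those of 4.36% of tested features, and its log2 fold change was -0.46 (SE 0.18). The single columns of SBPASE did overlap, and columns 3 and 4 were far apart, at 0.404 and 1.01 in the mutant and 0.713 and 1.33 in WT. Mutant columns 2 and 4, at 0.770 and 1.01, lay above WT columns 3, 5 and 6, at 0.713, 0.741 and 0.652. PSBW, a subunit of photosystem II, was at 0.46 (SE 0.38), LHCB1.5 at -0.23 (SE 0.32), PSAN at 0.12 (SE 0.17) and PRK at 0.07 (SE 0.35), each with overlapping pairs. None of the 5 passed limma's test, which called 1 of 3438 features in either direction (0.0291%). Their part in the CLPS1 values was not tested.

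CLPS1 intensities were lower in every mutant column than in any WT column, both as deposited and after the columns were brought to one distribution. As deposited, CLPS1 had intensities of 0.545 and 0.474 in mutant columns 1 and 2, 0.793 and 0.793 in columns 3 and 4, and 0.460 and 0.496 in columns 5 and 6. The WT intensities were 1.12 and 1.11 in columns 1 and 2, 0.940 and 0.828 in columns 3 and 4, and 0.932 and 1.03 in columns 5 and 6. Mutant columns 3 and 4 were the highest of their genotype and came close to WT column 4, the lowest of WT. Among all features, 115 of 3439 (3.34%) had all 6 mutant columns below all 6 WT columns in the deposited values.

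The distance between mutant columns 3 and 4 and the other mutant columns was also seen in the columns as a whole. The median intensity of a column was 0.659 in each of mutant columns 3 and 4, and between 0.341 and 0.402 in the other mutant columns. In WT the column medians lay between 0.485 and 0.627. Divided by the median of its own column, CLPS1 was between 1.18 and 1.46 in the mutant and between 1.69 and 1.98 in WT. On this relative scale mutant columns 3 and 4, at 1.205 and 1.203, no longer stood above the other mutant columns, which reached 1.36, 1.18, 1.34 and 1.46.

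The place of CLPS1 within a column does not depend on how columns are scaled to each other, and it showed the same separation. CLPS1 was brighter than 62.8% and 56.6% of features in mutant columns 1 and 2, than 60.3% and 59.7% in columns 3 and 4, and than 60.5% and 63.4% in columns 5 and 6. In WT it was brighter than 76.0% and 75.3% of features in columns 1 and 2, than 75.0% and 70.3% in columns 3 and 4, and than 74.6% and 78.0% in columns 5 and 6. The lowest WT column placed CLPS1 higher than the highest mutant column did. Features differ in how well they hybridise, so this place is one of brightness and not of transcript abundance. Among all features, 60 of 3439 (1.74%) had a lower rank in all 6 mutant columns than in all 6 WT columns.

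**Figure D1:**
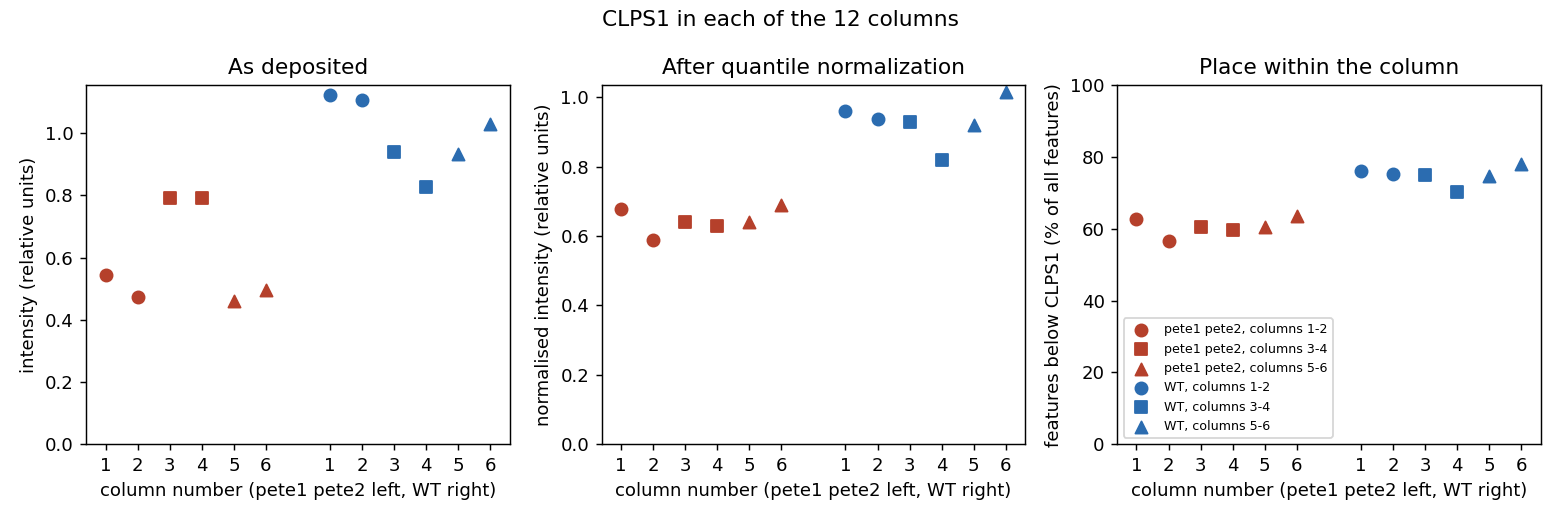
The intensity of CLPS1 in each column as deposited (left), after quantile normalization (middle) and as the percentage of features below it in the same column (right), with pete1 pete2 columns on the left of each panel and WT columns on the right. Symbols mark the pairs of columns. The genotypes do not overlap in any panel, and mutant columns 3 and 4 stand above the other mutant columns in the deposited values alone. A quantile normalised value follows from the rank within the column, so the middle and right panels are not independent.

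After quantile normalization, which gives every column the same distribution, the 3 pair values of CLPS1 were nearly equal within each genotype. The normalised intensity was 0.631, 0.635 and 0.664 in mutant pairs 1-2, 3-4 and 5-6, and 0.950, 0.872 and 0.966 in the same-numbered WT pairs. All mutant pairs lay below all WT pairs, as they did for 150 of 3438 tested features (4.36%). The means were 0.644 ± 0.0181 in the mutant and 0.929 ± 0.05001 in WT (SD, n = 3 each). The log2 fold change, mutant over WT, was -0.53 (SE 0.084), which is 0.693 of the WT level on the linear scale. The SE depended on how the variance was estimated across features: for the same fold change it was 0.21 without the dimmest 25% of features and 0.17 with a trended and robust variance. Over the 9 ways to set a mutant pair against a WT pair, the log2 difference ran from -0.61 to -0.39. In RNA from whole samples, fewer CLPS1 transcripts per cell and fewer cells that express the gene cannot be told apart.

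CLPS1, which was selected on its difference and spread, combined a difference of moderate size with a small spread. The largest log2 difference between pairs of one genotype was 0.073 in the mutant and 0.15 in WT, while the lowest WT pair lay 0.39 above the highest mutant pair. Between single columns, CLPS1 differed by 0.021 to 0.20 on the log2 scale within a pair and by 0.0037 to 0.31 between pairs of a genotype. Single columns of different genotypes differed by 0.25 to 0.78. The SD between pair values, pooled over both genotypes, was 0.063 on the log2 scale, and 11 of the 3326 features above the floor in at least 1 column had a lower one (0.331%). By size of the log2 fold change CLPS1 was 215th from the lowest of 3438, with 6.22% of features below it. Of the 150 features that were lower without overlap, 59 had a more negative log2 fold change than CLPS1 and 3 had a smaller pooled SD.

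**Figure D2:**
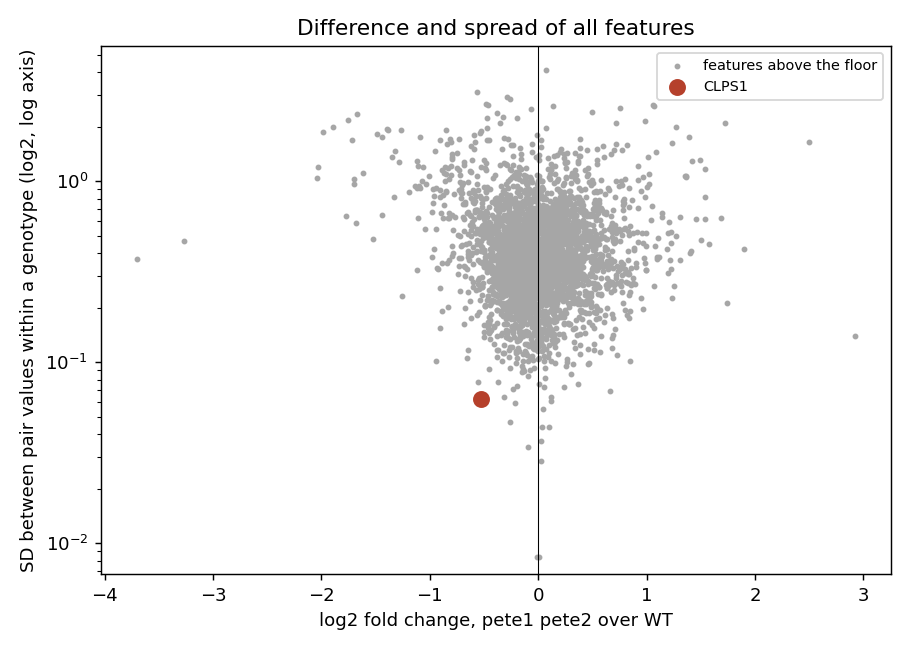
The log2 fold change of each feature, pete1 pete2 over WT (horizontal), against the SD between pair values within a genotype on the log2 scale (vertical, log axis), for the features above the floor. CLPS1, at -0.53 and 0.063, lies near the bottom of the cloud, and many features lie further to the left at larger SD.

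Ordered by limma's moderated t statistic, which sets the difference against the spread, CLPS1 was 6th from the lowest of all 3438 features and first among the features assigned to 1 gene. Because CLPS1 was selected on its difference and spread, this place only describes the selected feature. The feature just before it in this order, number 2953, and the one just after, number 4274, are not listed in the annotation and had log2 fold changes of -0.91 (SE 0.13) and -0.66 (SE 0.10). The next feature of a single gene, AT5G53920, had normalised intensities of 0.302 ± 0.0188 in the mutant and 0.475 ± 0.0446 in WT (SD, n = 3). With Benjamini-Hochberg adjustment at 0.05, limma called 0 of 3438 features lower in the mutant (0%). Without the adjustment, 92 features (2.68%) were lower at a p under 0.05. The place by moderated t depended on the processing. It was 84th with the values as deposited, 69th with each column scaled to its total, and 29th when the dimmest 25% of features were left out. It was 20th with a trended and robust variance. Leaving out WT columns 5 and 6, WT columns 1 and 2, mutant columns 3 and 4, or WT column 3 alone moved it to 20th, 12th, 23rd and 13th.

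The size of the difference depended on the scaling between columns, because the median of all features was itself shifted. With the values as deposited the log2 fold change of CLPS1 was -0.77 (SE 0.24), while the median over all features was -0.27. With scaling to the total it was -0.76 (SE 0.21), with a median of -0.26. Relative to the median of all features CLPS1 was at -0.50 in both, at -0.49 when each column was centred on its median, and at -0.52 after quantile normalization. The log2 fold change was negative and the pair values did not overlap in each of these 4 scalings. Of 3438 tested features, 254 were lower without overlap as deposited and 250 when scaled to the total. With centring on the median there were 130, and after quantile normalization 150. Leaving out 1 column at a time gave log2 fold changes from -0.56 to -0.50, and leaving out 1 pair at a time from -0.57 to -0.50.

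**Figure D3:**
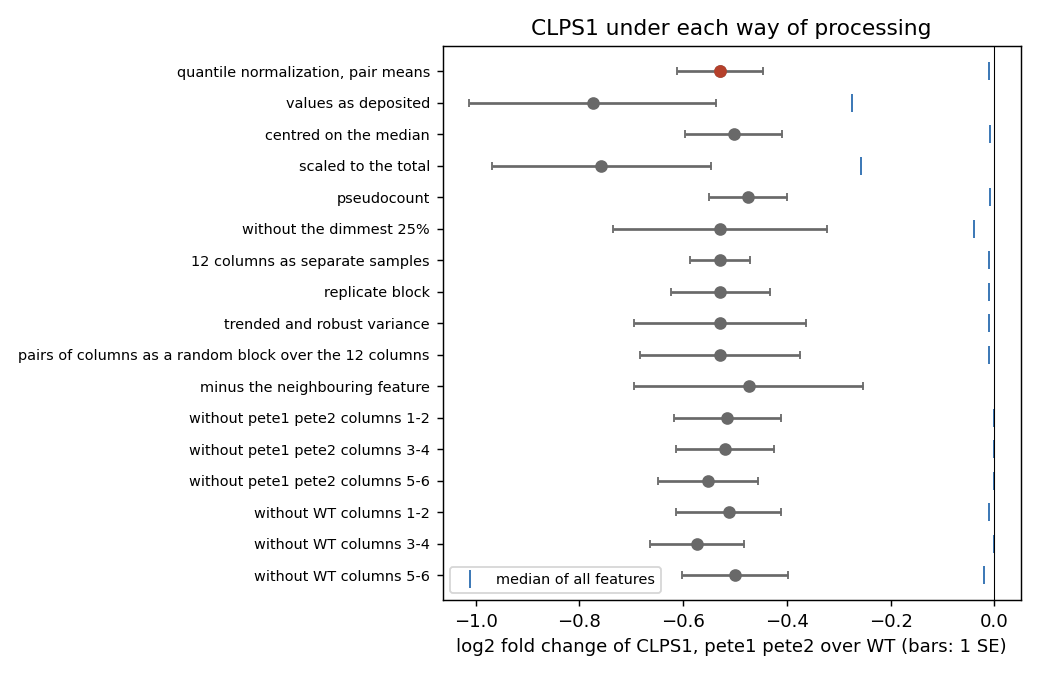
The log2 fold change of CLPS1, pete1 pete2 over WT, with its SE as bars, under each way of processing except leaving out single columns. The result after quantile normalization of pair means is in red. Blue ticks mark the median of all features, which lies at -0.27 and -0.26 in the values as deposited and scaled to the total, the 2 settings in which CLPS1 lies furthest from 0.

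The feature next to CLPS1 in number was also examined. Whether features with neighbouring numbers share shifts between columns was not tested. Feature 4396, which is not listed in the annotation, had normalised intensities of 0.739, 0.666 and 0.747 in mutant pairs 1-2, 3-4 and 5-6, and 1.01, 0.695 and 0.590 in the WT pairs. These groups overlap, and the log2 fold change of feature 4396 was -0.06 (SE 0.22). The table has no row with the number just above CLPS1. When feature 4396 was subtracted from CLPS1 within each pair, the log2 fold change of CLPS1 was -0.47 (SE 0.22), and the pair values of the genotypes then overlapped.

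Of 16 genes of the plastid Clp system, 2 had a feature of their own, CLPS1 and its partner adaptor CLPF (AT2G03390). CLPF had normalised intensities of 0.414, 1.04 and 0.555 in mutant pairs 1-2, 3-4 and 5-6, against 0.685, 0.528 and 0.540 in the WT pairs. Mutant pair 3-4 was the highest of all 6 and mutant pair 1-2 the lowest, so the genotypes overlapped. The CLPF means were 0.670 ± 0.329 in the mutant and 0.584 ± 0.0877 in WT (SD, n = 3 each), a log2 fold change of 0.10 (SE 0.37). CLPF did not pass limma's test, which called 1 of 3438 features in either direction (0.0291%). The difference between the log2 fold changes of the 2 adaptors was not tested.

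The accessory core subunits CLPT1 (AT4G25370) and CLPT2 (AT4G12060) shared 2 features, which the annotation assigns to both genes. Feature 3431 had normalised intensities of 1.58, 0.788 and 1.59 in mutant pairs 1-2, 3-4 and 5-6, against 0.778, 1.16 and 1.32 in the WT pairs. Feature 4384 had 0.918, 0.541 and 0.776 in the mutant pairs, against 1.16, 0.777 and 0.330 in the WT pairs. The genotypes overlapped in both features, with log2 fold changes of 0.24 (SE 0.37) for feature 3431 and 0.12 (SE 0.53) for feature 4384, and neither passed limma's test. The 2 features did not order the pairs alike: WT pair 5-6 was the highest of WT in feature 3431 and the lowest in feature 4384.

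**Figure D4:**
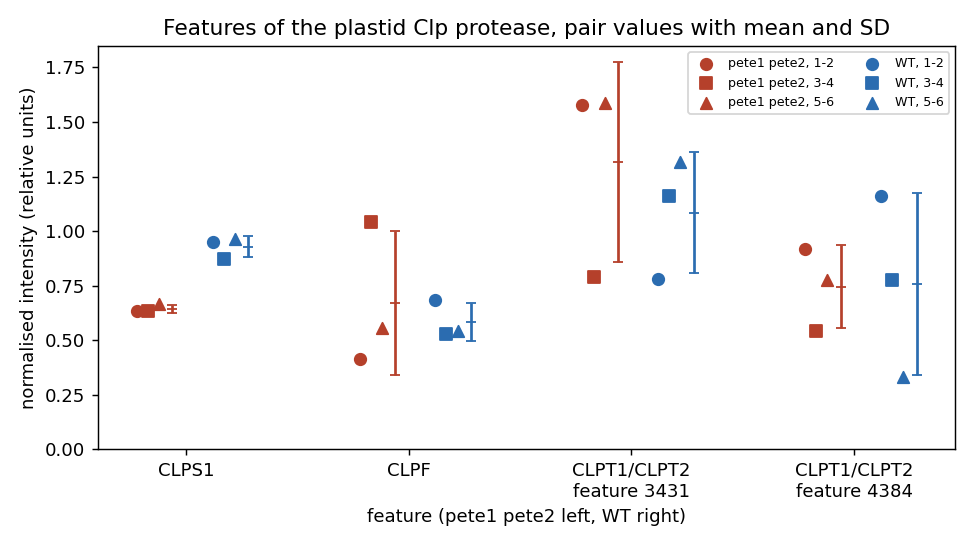
Normalised intensities of CLPS1, CLPF and the 2 features shared by CLPT1 and CLPT2 in the pairs of columns, with pete1 pete2 left and WT right for each feature, and the mean and SD (n = 3) beside the points. The genotypes are apart for CLPS1 and overlap for the other 3 features.

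The remaining 12 Clp genes had no feature assigned to them alone or with others. Among them are the CLPC and CLPD chaperones and the CLPP and CLPR subunits. Nor was a feature assigned to HEMA1 or HEMA2, which encode glutamyl-tRNA reductase, or to the mitochondrial CLPP2 and CLPX1. Of 13 other plastid proteases, SPP, the stromal peptidase that removes transit peptides, had 1 feature, number 2564, shared with AT5G56730. Its normalised intensities were 0.272, 0.253 and 0.354 in the mutant pairs, against 0.186, 0.335 and 0.201 in the WT pairs, which overlap. The 8 plastid chaperones of the list had no feature. A pair of related chaperonin genes, added to the list once the annotation had been read, were measured and did not pass limma's test. The log2 fold change was 0.35 (SE 0.23) for Cpn60beta3 and 0.07 (SE 0.11) for Cpn60beta4, which are subunits of a protein folding complex of the stroma.

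The 5 single genes whose 6 pair values lay nearest to those of CLPS1 were found among 606 genes above 0 in all columns. Each profile was centred on its own mean on the log2 scale, and the measure was the root mean square difference from CLPS1. That difference was 0.0934 for AT4G05490, 0.0997 for AT5G34870, 0.110 for AT5G56850, 0.121 for AT1G50770 and 0.121 for AT4G24160, against a median of 0.419 over the 606 genes. AT4G24160 is the Arabidopsis homologue of CGI-58, a regulator of neutral lipid turnover in animals. AT4G05490, the nearest, had normalised intensities of 0.225, 0.215 and 0.224 in mutant pairs 1-2, 3-4 and 5-6, and 0.307, 0.266 and 0.285 in the WT pairs. Its difference between the genotypes was smaller than that of CLPS1, with a log2 fold change of -0.37 (SE 0.090). The log2 fold changes of the other 4 lay between -0.44 and -0.31. Being near CLPS1 in all 6 pairs fixes that these genes are lower in the mutant. Pearson's r with CLPS1 over the same 6 pair values was from 0.91 to 0.97 for these genes, and 21 of the 606 genes had an r of 0.8 or more. The points share their columns and their normalization, and 6 points fix an r only loosely. Choosing the 5 genes by r kept 4 of them and brought in AT5G53920 in place of AT5G56850.

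**Figure D5:**
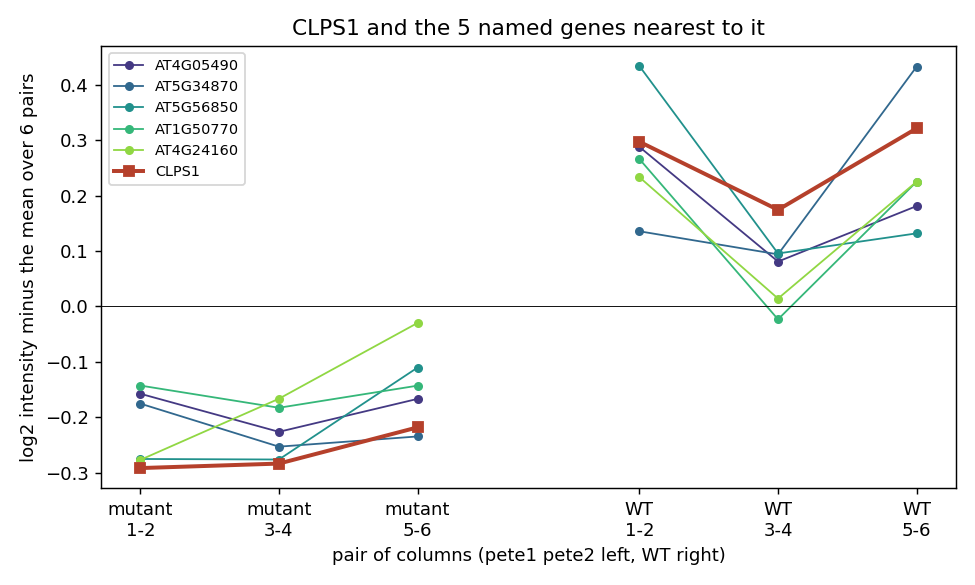
Log2 intensity of CLPS1 (thick red) and of the 5 nearest single genes in the 3 pete1 pete2 pairs (left) and the 3 WT pairs (right), each minus its mean over the 6 pairs. Lines join the pairs of a genotype to make each gene traceable and stand for no order. CLPS1 has the lowest values in mutant pairs 1-2 and 3-4, and its log2 fold change of -0.53 is larger in size than those of the 5 genes.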

How the data were processed

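The authors deposited linear intensity values in relative units, 1 column per sample; no source used here names the scanner, background correction, scaling or genome build. Samples were grouped by title. No label tells separate plants from repeat measurements, so SEs and p-values may reflect technical spread alone. The main setting was quantile normalization, then a floor at the 1st percentile of the positive deposited values (0.0225), then log2. Paired columns were averaged, and so were the 2 features of 1 gene, leaving 3438 tested features. Features at the floor in every column, with an SD of 0 between pair values, were kept in the fit. Their own part in the SE of CLPS1 was not tested. Of 692 features with 1 gene, 690 matched the TAIR10.1 gene table, used for names only. The fit over all features (two-sided, lmFit with eBayes, Benjamini-Hochberg adjustment) used R 4.3.3 with limma 3.58.1. On simulated independent values, the only requirement checked was that the median estimated change lay near the added one. Normalised intensities are printed on the linear scale, and the number of arrays limits their precision. The gene and the lists were chosen with earlier results of these data known. The text names CLPS1, measured list members, the 5 nearest single genes, the neighbour in feature number and those next to CLPS1 by moderated t; shared features and the chaperonins were added later. The alternatives were other scalings, a pseudocount of 0.0872, a filter on dim features, other variance models, a block on the pair number, separate columns and leaving out columns or pairs. Same-numbered pairs of the genotypes deviated from their group means with r of 0.32, 0.00056 and 0.39 over features. One of these is under 0.1, and the main fit did not take the numbers to pair the samples. The r of 0.32 and 0.39 leave unsettled whether same-numbered pairs shift together, so the block on the pair number is given as an alternative.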

Additional observations from a re-analysis of the deposited data

How the results depend on the processing

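The log2 fold change of CLPS1 was negative under all 28 alternatives and moved by more than the SD between pair values in 2, to -0.77 when no scaling was applied and -0.76 when columns were scaled to their total. With a pseudocount it was -0.47. The replicate block on the pair number left it at -0.53 (SE 0.096) and placed CLPS1 13th by moderated t, and the pairs as a random block over 12 columns, added after the data were seen, gave an SE of 0.15 and the 25th place. Of 3438 tested features, those lower without overlap numbered 254 without scaling, 250 when scaled to the total and 60 with 12 separate columns, against 150 (4.36%). On leaving out columns or pairs they ran from 141 (mutant column 4 left out) to 408 (mutant pair 3-4 left out, so that fewer pairs have to be apart). Without mutant columns 5 and 6, or WT columns 1 and 2, 3 and 4, or 5 and 6, they numbered 350, 257, 321 and 330. Limma called 75 of 3438 features lower with 12 separate columns, where the columns of a pair are taken as independent, 4 with the random block and 0 or 1 otherwise. The cause was not tested. No background values were used here, so how far CLPS1 lay above background cannot be stated.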
